A study of Homo sapiens with 8 samples.

Results

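The replication-dependent histone genes encode the bulk of the histones that package newly made DNA. Their transcripts were followed here after a kinase inhibitor and after a PRMT5 knockdown, in cells labelled HEL, an established human erythroleukaemia line. Members were taken by symbol from the platform's probe annotation: genes of the HIST1H, HIST2H, HIST3H and HIST4H families, in current naming H1-1 to H1-6, H2AC, H2BC, H3C and H4C with a number. Of the 54675 probe sets on the array, 68 named only such genes, 48 of them a single gene and 20 several genes, up to 14. They covered 61 genes, of 69 that carry such a symbol in the RefSeq gene table. By class, 7 probe sets belonged to the linker histone H1, 15 to H2A, 19 to H2B, 10 to H3 and 15 to H4, and 2 named an H2A gene together with H3 genes.

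Each nucleosome wraps DNA around a core of H2A, H2B, H3 and H4, and H1 binds the DNA that enters and leaves it. The replication-dependent copies lie in clusters, are transcribed mainly in S phase, and yield mRNAs that mostly end in a conserved stem-loop bound by SLBP in place of a poly(A) tail. When DNA synthesis stops these mRNAs are normally degraded, while polyadenylated forms of several of them are known from differentiating and non-dividing cells. A 3' array of this kind is primed from poly(A), so its signals cover mainly the polyadenylated forms.

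The study's stated aim was to set the expression profile of drug-treated cells beside that of PRMT5-depleted cells. Its 4 groups held 2 arrays each, all of cells labelled HEL: cells given 0.5 µM CEP701 (lestaurtinib, an inhibitor of JAK2, FLT3 and other kinases) for 16 h, cells given the solvent DMSO for the same time, cells stably carrying a pLKO lentivirus with 1 shRNA against PRMT5, and cells with a scramble shRNA in the same vector. PRMT5 is an arginine methyltransferase whose substrates include histones. Whether the stable lines were clones or pools, and whether the 2 arrays of a group came from separate cultures, is not stated in the labels, so the p-values reflect variation among these arrays alone, and that variation may be purely technical. The PRMT5 shRNA and scramble arrays share a pair of title suffixes, 1 array of each group per suffix, called replicates 1 and 2 here.

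The promoters of the 4 members that passed the test in the CEP701 comparison are shown first, together with those of H2AC6 and H1-2. H2AC6 was added after its values were seen, since it had the largest difference with CEP701 among the members, and H1-2 is the H1 member the naming rule picks. Each window is the 150 bases before the gene's annotated start on human chromosome 6, from RefSeq's GRCh38.p14 annotation, read 5' to 3' on the gene's strand. They lie at chr6:26157971-26158120 for H2BC5, chr6:27146859-27147008 for H2BC12, chr6:26251464-26251613 for H2BC9, chr6:26183611-26183760 for H2BC6, chr6:26124022-26124171 for H2AC6 and chr6:26056471-26056620 for H1-2. H2BC12 and H1-2 lie on the minus strand and the other four on the plus strand. Capitals mark, on either strand, the octamer ATTTGCAT, the box CCAAT, the TATA box TATAAA and the H1 box AAACACA.
H2BC5: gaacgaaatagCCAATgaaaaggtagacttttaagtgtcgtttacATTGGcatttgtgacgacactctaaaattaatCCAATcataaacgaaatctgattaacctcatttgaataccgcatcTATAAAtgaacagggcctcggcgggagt
H2BC12: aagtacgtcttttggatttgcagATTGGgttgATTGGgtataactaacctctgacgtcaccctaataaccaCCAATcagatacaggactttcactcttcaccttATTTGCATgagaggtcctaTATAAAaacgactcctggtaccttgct
H2BC9: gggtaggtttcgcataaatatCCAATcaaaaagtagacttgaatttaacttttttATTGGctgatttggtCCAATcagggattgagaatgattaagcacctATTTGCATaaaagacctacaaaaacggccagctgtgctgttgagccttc
H2BC6: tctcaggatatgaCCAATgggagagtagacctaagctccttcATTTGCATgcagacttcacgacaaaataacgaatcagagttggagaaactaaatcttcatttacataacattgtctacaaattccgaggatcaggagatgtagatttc
H2AC6: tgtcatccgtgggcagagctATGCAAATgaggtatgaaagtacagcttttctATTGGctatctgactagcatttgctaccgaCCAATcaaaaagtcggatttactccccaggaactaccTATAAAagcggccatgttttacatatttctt
H1-2: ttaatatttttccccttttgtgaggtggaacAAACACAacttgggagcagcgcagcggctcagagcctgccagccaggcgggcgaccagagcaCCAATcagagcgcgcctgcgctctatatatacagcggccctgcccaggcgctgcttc

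The octamer, the binding sequence of POU2F1 and a known element of H2B promoters, was present in 14 of 18 H2B windows (77.8%), in 5 of 16 H2A windows, in 1 of 11 H3 windows and in none of 6 H1 or 13 H4 windows. Over all 35116 promoter windows of the same length it was present in 0.988%. Among the printed windows it stood 46 bases before the start in H2BC12, 49 in H2BC9 and 108 in H2BC6, and on the opposite strand 130 bases before the start in H2AC6. The H2BC5 window held no match to these letters. CCAAT was present in 84.4% of the 64 member windows, against 23.5% of all windows, and TATAAA in 54.7%, against 6.71%. AAACACA, an element known from H1 promoters, was present in 5 of 6 H1 windows (83.3%) and 2.71% of all windows. These matches describe the letters only and do not show that a factor binds.

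The member genes with a window lie on chromosome 6 (50 genes), chromosome 1 (13) and chromosome 12 (1). In 12 pairs 2 member genes start head to head within 1000 bases of each other, with starts 194 to 979 bases apart. Of these pairs 11 are an H2A and an H2B gene, with starts 194 to 248 bases apart. The arrays measured only some of these pairs with probe sets of their own. H2AC6 and H2BC4, 246 bases apart, had differences of 1.89 and 0.51 log2 units with CEP701, neither passing the test. H2BC9, which rose by 0.98, starts 979 bases from H3C7, whose difference was -0.59.

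All values below are the MAS5 signals the authors deposited. For the tests, 10 was added to each signal and log2 taken. Tests were run on probe sets with 2 or more arrays above a signal of 59.98, the median over the whole deposit. There were 32587 of them, including 53 of the 68 members. The 15 members that did not pass had signals between 1.36 and 104 (median 13.9), among them the probe sets of H1-1, H1-5 and H2BC1. At the limit, the second-highest signal was 56.4 for H2BC14, just outside, and 61.7 for H1-6, just inside. The members tested were 4 of H1, 13 of H2A, 14 of H2B, 7 of H3, 13 of H4 and both mixed ones. With no detection calls deposited, it cannot be said which of the low signals lie above background, and precision is limited by there being only 2 arrays in each group.

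Facts of the arrays bear on what follows. Arrays of 1 group correlated at 0.957 to 0.971 over the tested probe sets and arrays of different arms (drug or shRNA) at 0.816 to 0.848. PRMT5 by its first probe set had 664 and 315 with PRMT5 shRNA, against 1794 and 984 with scramble (replicates 1 and 2), and 3023 and 2750 with CEP701, against 3419 and 3221 with DMSO. With PRMT5 shRNA it stood at 35.2%, 41.7% and 45.8% of scramble by its 3 probe sets. The adjusted p of the first was 0.241 without a replicate block and 3.03e-04 with the title suffix as a block. Of the 10 erythroid and megakaryocyte markers of HEL that were tested, 2 were higher and 3 lower in scramble than in DMSO, against 22.9% and 16.5% of all probe sets. Their log2 differences lay between -1.67 (JAK2) and 4.20 (PF4, platelet factor 4). TAL1, a haematopoietic transcription factor, was at 7336 to 8919 on all 8 arrays. The monocyte and granulocyte markers differed between the arms: their summed signal (8 of 9 markers measured) was 8163 and 9388 with CEP701 and 5578 and 5637 with DMSO, but 66474 and 100791 with PRMT5 shRNA and 88707 and 102152 with scramble. MPO lay between 4.13 and 63.5 on the drug-arm arrays and between 10913 and 20593 on the shRNA-arm arrays, although both arms are labelled HEL. Whether the cells of both arms are the same line was not tested. The summed epithelial and fibroblast markers lay at 1904 to 2104 in the drug arm and 3300 to 6515 in the shRNA arm, and the summed lymphocyte markers at 1623 to 2144 in the drug arm and 692 to 814 in the shRNA arm. Each histone comparison below therefore stays within an arm unless it is named as one between arms, and the part of these differences in the histone values was not tested.

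With CEP701, 4 H2B transcripts rose. Among the 53 members tested, 4 rose and 0 fell at an adjusted p under 0.05 (limma with Benjamini-Hochberg adjustment over all tested probe sets), against 2.44% and 1.38% of all probe sets, and all 4 are H2B probe sets: H2BC5, H2BC12, H2BC9 and H2BC6. At an unadjusted p under 0.05, 15 members were higher and 2 lower, against 12.8% and 8.11% of all probe sets. Most H2A members also stood higher with CEP701 without passing the test, while the H3 members, mostly at low signals, had a median below 0 and the H4 members were split. In bulk cells, fewer cells in a phase or state and less RNA per cell cannot be told apart.

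H2BC5 (probe set 209911_x_at) had signals of 1452 and 1502 with CEP701, against 438 and 445 with DMSO. The CEP701 arrays lay far above the DMSO arrays, and H2BC5 rose 3.29-fold (log2 difference 1.72, SE 0.298, adjusted p = 0.0182 by limma). The shRNA-arm arrays lay above both DMSO arrays and below both CEP701 arrays, at 446 and 789 with PRMT5 shRNA and 658 and 1115 with scramble. H2BC5 has a second probe set, 222067_x_at, with 1137 and 1242 with CEP701, against 422 and 627 with DMSO. Its groups did not overlap either, but its difference of 1.19 did not pass (SE 0.363, adjusted p = 0.0958).

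H2BC12 (209806_at) is the only one of the 4 whose probe set is not of the cross-matching kind. Its signals were 10024 and 10423 with CEP701, against 4109 and 4308 with DMSO. It rose 2.43-fold (log2 1.28, SE 0.242, adjusted p = 0.024), with every CEP701 array above every DMSO array. The PRMT5 shRNA arrays, at 2211 and 3974, overlapped the scramble arrays, at 2926 and 3802.

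H2BC9 (208546_x_at) had 698 and 717 with CEP701, against 346 and 360 with DMSO, and rose 1.98-fold (log2 0.98, SE 0.205, adjusted p = 0.032). H2BC6 (208527_x_at) had 789 and 902 with CEP701, against 381 and 497 with DMSO, and rose 1.92-fold (log2 0.94, SE 0.217, adjusted p = 0.0442). In both the CEP701 and DMSO arrays were apart, H2BC6 by the narrower margin. Probe sets ending in _x_at can match near-identical copies, and H2B genes are close to one another in coding sequence, so the share of each gene in these 3 signals is uncertain. H2BC12L, a close relative of H2BC12 outside the family rule, rose too, with 2443 and 2524 with CEP701, against 1087 and 1218 with DMSO (log2 1.10, adjusted p = 0.024). It is named after its values were seen.

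**Figure D1:**
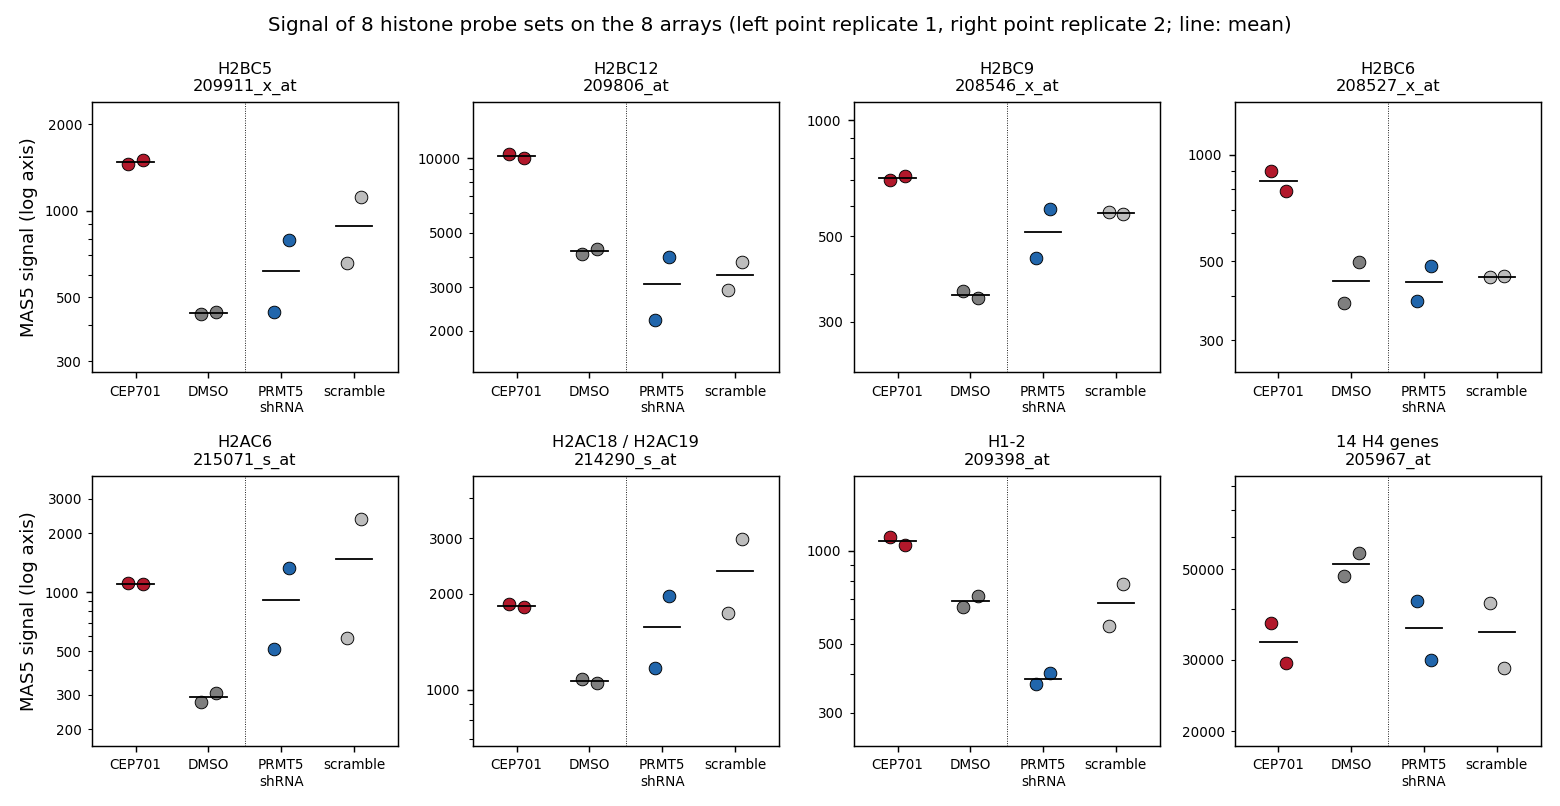
MAS5 signal (log axis) of 8 histone probe sets on the 8 arrays, by group, with each array as a point and the group mean as a line. The 2 CEP701 arrays stand above both DMSO arrays in the first 7 panels and below them in the last, the 14-gene H4 probe set, while in the shRNA arm only H1-2 has its PRMT5 shRNA arrays apart from the scramble arrays.

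The number of calls depended on the arrays in the fit. With any 1 of the CEP701 or DMSO arrays left out, no member passed, when 24 to 91 of all probe sets did. Without scramble replicate 1, 7 members rose, against 3.29% of all probe sets, and without scramble replicate 2, 7 rose, against 3.31%. The fit shares 1 estimate of spread over both arms, and the shRNA arm's spread holds the difference between its 2 suffixes. With the suffix of the shRNA arm as a block, an alternative chosen after seeing the data, 14 members rose and 1 fell, against 8.5% and 6.69% of all probe sets. With only the 4 arrays of the drug arm, 11 rose and 1 fell, against 7.91% and 6.66%. The 4 named H2B members passed in both. With the block, the 14 were 7 of H2B, 6 of H2A and 1 of H1, and the one that fell was of H4.

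The other H2B members mostly stood higher with CEP701. The median log2 difference over the 14 tested was 0.66, 11 stood above 0, against 58.6% of all probe sets, and 11 had both CEP701 arrays above both DMSO arrays. Without the _x_at and _s_at probe sets, 6 H2B members were left, with a median of 0.22 and 3 above 0, against a median of 0.15 over all such probe sets. Over all tested members such a gap upward was seen in 30 of 53 and downward in 8, against 34.5% and 22.9% of all probe sets. The 5-gene probe set 208490_x_at (H2BC4, H2BC6, H2BC7, H2BC8 and H2BC10) had 687 and 792 with CEP701, against 443 and 447 with DMSO, a difference of 0.72 that did not pass (SE 0.191, adjusted p = 0.0675) and did with the shRNA-arm block (adjusted p = 0.0165). H2BC21, whose mRNA is known to occur in a polyadenylated form, had 113 and 141 with CEP701, against 45.5 and 56.7 with DMSO, a difference of 1.16 (adjusted p = 0.119). The 3 H2B members below 0 had mean signals over all arrays of less than 300.

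With the 8 arrays as deposited, no block and the filter on at least 2 arrays, no H2A member passed. With the filter on all 8 arrays 1 was called higher, the 6-gene probe set 207156_at. H2AC6, described next, was called higher in 6 of 20 alternatives: the poly-A scaling, the drug arm's own arrays, either block, and without scramble replicate 1 or 2. With the drug arm's own arrays 4 H2A members rose, and with poly-A scaling H2AC14 was called lower. The median H2A difference was 0.81, with 10 of 13 above 0, against 58.6% of all probe sets. In 9 of the 13 the CEP701 arrays lay wholly above the DMSO arrays, against 34.5% of all probe sets. Without the _x_at and _s_at probe sets, 6 H2A members were left, with a median of 0.96 and 5 above 0. Over all such probe sets the median was 0.15. The members of this class given next, H2AC6, H2AC25 and H2AC17, were chosen after their values were seen. H2AC6 had 1100 and 1112 with CEP701, against 275 and 307 with DMSO. These arrays were far apart, but in the shRNA arm H2AC6 was at 512 and 1321 with PRMT5 shRNA and 587 and 2353 with scramble. Its difference of 1.89 carried an SE of 0.561 (adjusted p = 0.0901), and with the shRNA-arm block its adjusted p was 1.80e-04. H2AC25 had 1268 and 1423 with CEP701, against 571 and 711 with DMSO (1.06, adjusted p = 0.0854), and H2AC17 had 155 and 174 with CEP701, against 56.2 and 90.0 with DMSO (1.10, adjusted p = 0.0821).

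The H2A probe set 214290_s_at names H2AC18 and H2AC19, a duplicated pair. It had 1815 and 1864 with CEP701, against 1051 and 1080 with DMSO, apart by more than either group's spread. The difference of 0.78 did not pass (SE 0.28, adjusted p = 0.145) and did with the shRNA-arm block (adjusted p = 0.00163). The 6-gene probe set 207156_at (H2AC11, H2AC12, H2AC13, H2AC15, H2AC16 and H2AC17) had 340 and 342 with CEP701, against 184 and 196 with DMSO. Its difference of 0.81 did not pass (adjusted p = 0.0681) and did with the shRNA-arm block (adjusted p = 0.0224). A second probe set for the same 6 genes, 214542_x_at, had low signals of 38.4 and 38.6 with CEP701, against 34.8 and 120 with DMSO, so the gene group has no single direction by its probe sets.

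Among the linker histones, H1-2 had 1045 and 1102 with CEP701, against 657 and 714 with DMSO. The groups did not overlap, and the difference was 0.64 (SE 0.203, adjusted p = 0.106, and 0.0206 with the shRNA-arm block). The other 3 H1 members tested, H1-3, H1-4 and H1-6, lay between -0.78 and 0.24, and the class median was -0.17.

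The H3 members were all at mean signals between 35.1 and 139, and none passed. Their median difference was -0.35, with 5 of 7 below 0 and 28.6% above 0, against 58.6% of all probe sets above 0. H3C7 (208506_at) had 61.2 and 75.6 with CEP701, against 87.9 and 131 with DMSO, a difference of -0.59 (SE 0.395, adjusted p = 0.431). The groups were apart, but by less than the DMSO arrays were from each other. The mixed probe set 214522_x_at (H3C4 and H2AC7) had 72.3 and 119 with CEP701, against 65.6 and 132 with DMSO, which overlapped. H3C6 by 236278_at, named after its values were seen, stood apart upward, with 70.2 and 85.1 with CEP701, against 1.85 and 47.0 with DMSO (1.75, SE 0.768, adjusted p = 0.228). It passed the signal filter only through these CEP701 arrays. The second H3C6 probe set, 214616_at, had 35.4 and 77.1 with CEP701, against 58.5 and 84.3 with DMSO, which overlapped (-0.35, adjusted p = 0.718). H3C6 thus has no single direction by its probe sets.

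The H4 members had a median of 0.21, with 7 of 13 above 0, against 58.6% of all probe sets. The 14-gene probe set 205967_at, which names most H4 genes, had 29464 and 36904 with CEP701, against 48059 and 54755 with DMSO. Here the CEP701 arrays lay wholly below the DMSO arrays, the opposite of the 4 H2B members that rose. The difference of -0.64 did not pass (SE 0.211, adjusted p = 0.119), and passed with the shRNA-arm block (adjusted p = 0.00606). The other 3 tested probe sets for the same 14 genes gave differences of 1.32, 0.21 and -1.43, none passing. H4 copies encode the same protein from near-identical coding sequences, and which genes each probe set measured is uncertain.

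Signal level separated the members further, by a limit chosen after their values were seen. Of the 15 members with a mean signal over 300 on the 8 arrays, 14 had a difference above 0 (median 0.78) and 13 had their CEP701 arrays wholly above the DMSO arrays, against 36.2% of all probe sets that bright. All 4 calls lay among them, against 3.93% called higher. The only bright member below 0 was the H4 probe set 205967_at. The 38 members at 300 or less had a median of 0.12, with 19 of them above 0 and none called. All probe sets at 300 or less had a median of 0.21, and 1.05% of them were called higher. The median SE was 0.483 among these 38 and 0.23 among the brighter members, against 0.478 and 0.209 over all probe sets of these levels.

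**Figure D2:**
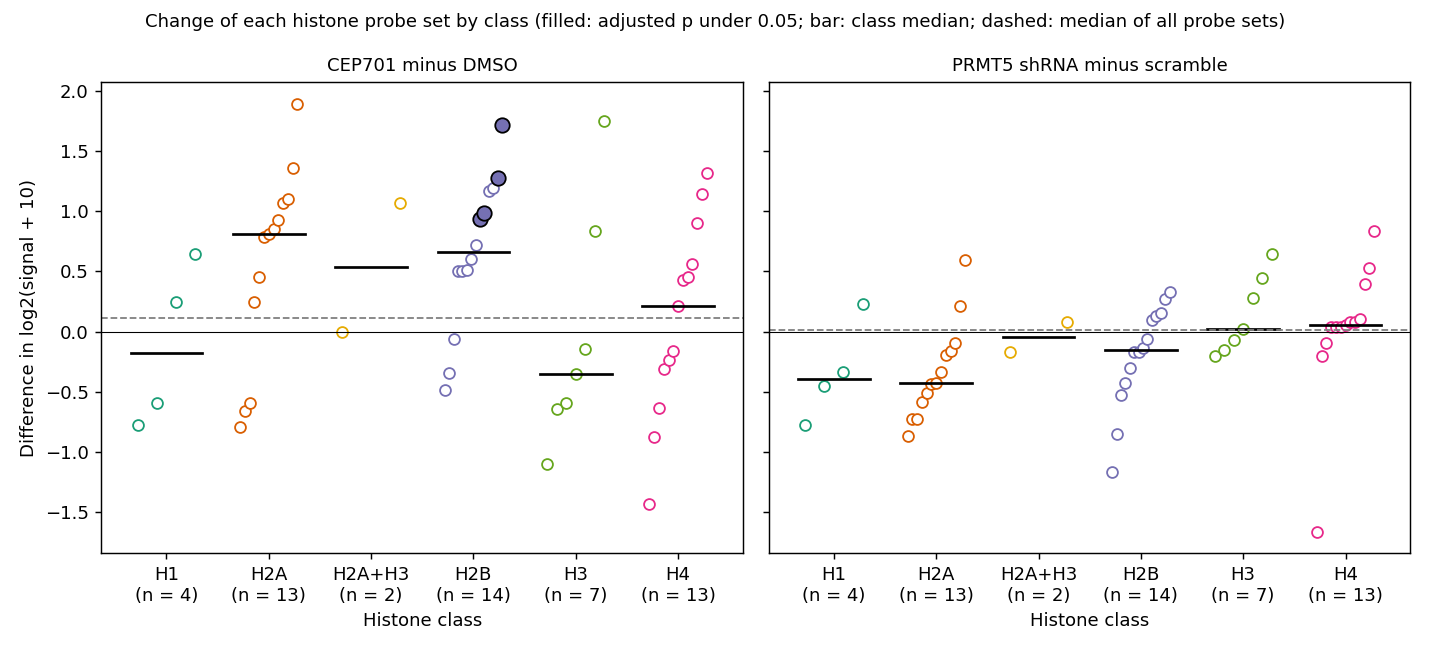
Difference in log2(signal + 10) of each tested histone probe set by class, for CEP701 minus DMSO (left) and PRMT5 shRNA minus scramble (right), with class medians as bars and the median of all probe sets dashed. Filled points passed the test: the 4 H2B members on the left and none on the right, where the class medians lie between -0.43 and 0.05.

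Scaling moved all probe sets together. The median difference over all tested probe sets was 0.11 as deposited, -0.13 after median scaling, 0.00 after quantile normalization and -0.49 after scaling to the spiked poly-A controls. The members' median stood above that of all probe sets by 0.39, 0.39, 0.31 and 0.38. Without the _x_at and _s_at probe sets, which leaves 33 members, it stood above by 0.09. Under the poly-A scaling the H2B median was 0.02, so the direction given for the class holds relative to the other probe sets. H2BC5, H2BC12, H2BC9 and H2BC6 had differences above 0 under every one of these scalings. One of 2 measures of RNA quality was apart between CEP701 and DMSO: the 5'/3' signal ratio of ACTB was 0.116 and 0.161 with CEP701, against 0.199 and 0.198 with DMSO. That of GAPDH was 0.787 and 0.856 with CEP701, against 0.882 and 0.809 with DMSO, which overlapped. In the shRNA arm the ACTB ratio was 0.187 and 0.335 with PRMT5 shRNA, against 0.141 and 0.179 with scramble, and the GAPDH ratio was 0.729 and 0.778 with PRMT5 shRNA, against 0.846 and 0.883 with scramble. The part of these ratios in the histone values was not tested.

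Genes known to transcribe, process or load histones stood mostly below 0 with CEP701. In a list of 23 genes for histone mRNA transcription, processing and decay, 22 were tested, 0 rose, 3 fell and 15 lay below 0, with a median of -0.35. Of all probe sets 2.44% rose, 1.38% fell and 58.6% lay above 0, with a median of 0.11. SLBP, which binds the histone stem-loop, had 9715 and 10313 with CEP701, against 14847 and 15440 with DMSO, and fell by 0.60 (adjusted p = 0.0422). LSM10, part of the U7 snRNP that guides cleavage of histone pre-mRNA, fell by 0.83 (adjusted p = 0.0358) and NCBP1, the large subunit of the nuclear cap-binding complex, fell by 0.96 (adjusted p = 0.0455). CCNE2, a cyclin of the G1 to S transition, had a difference of -0.71 that did not pass (adjusted p = 0.0505).

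Of 22 histone chaperones and import factors tested, 1 fell and 0 rose, against 1.38% and 2.44% of all probe sets. In this list 17 lay below 0, with a median of -0.35, against 58.6% of all probe sets above 0. The one that fell was CHAF1A, the large subunit of the CAF-1 complex that deposits H3 and H4 on new DNA. It had 414 and 524 with CEP701, against 990 and 1033 with DMSO (log2 -1.10, adjusted p = 0.0157). Of 36 tested S phase and DNA replication genes, 35 lay below 0 (median -0.67), and 3 passed as lower, against 1.38% of all probe sets. RRM2, a subunit of ribonucleotide reductase, fell by 0.76 (adjusted p = 0.0226), POLA2 of the primase complex fell by 1.20 on the log2 scale (adjusted p = 0.0289) and CDC45 of the replicative helicase fell by 1.51 (adjusted p = 0.0389). POLE2 had a difference of -1.28 and did not pass (adjusted p = 0.05003). With the shRNA-arm block, 26 of the 36 fell and 0 rose, against 6.69% and 8.5% of all probe sets.

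Among 9 tested replication-independent histone variants, 1 rose, against 2.44% of all probe sets. H1-10, a linker histone made outside S phase, had 3598 and 3699 with CEP701, against 1766 and 1922 with DMSO (log2 0.98, adjusted p = 0.0129). H2AZ1 had a difference of -0.39 and H2AX one of -0.37, and neither passed (adjusted p = 0.14 and 0.248). Among the HEL markers EPOR, the erythropoietin receptor, rose (1.09, adjusted p = 0.0321) and GFI1B, an erythroid and megakaryocytic repressor, fell by 1.24 (adjusted p = 0.00528). No lymphocyte, epithelial and fibroblast, or monocyte and granulocyte marker passed. In the last of these lists 6 of 8 lay above 0, against 58.6% of all probe sets, and the part of their summed level in the histone values was not tested. With the shRNA-arm block, 2 of these 8 rose with CEP701, against 8.5% of all probe sets. They were LYZ (lysozyme), by 0.64 (adjusted p = 0.0102), and ITGAM (the integrin CD11b), by 0.85 (adjusted p = 0.0264).

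With PRMT5 shRNA no histone member passed. In this comparison 0 of 53 rose and 0 fell by limma, against 0.00307% and 0.107% of all probe sets, and the lowest adjusted p among the members was 0.398. At an unadjusted p under 0.05, 1 member was higher and 3 lower, against 5.99% of all probe sets in either direction. The PRMT5 shRNA arrays lay wholly above the scramble arrays for 5 members and wholly below for 9, against 15.2% and 15% of all probe sets. The median over the members was -0.09, against 0.01 over all probe sets.

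By class the medians were -0.39 for H1, -0.43 for H2A, -0.15 for H2B, 0.02 for H3 and 0.05 for H4. Of the H2A members 11 of 13 lay below 0 and 15.4% above 0, against 51.8% of all probe sets above 0. In 4 of the 13 the PRMT5 shRNA arrays lay wholly below, against 15% of all probe sets. H1-2 had the lowest unadjusted p of the members, with 371 and 401 with PRMT5 shRNA, against 572 and 782 with scramble. The groups were apart, and the difference of -0.78 did not pass (SE 0.203, adjusted p = 0.398, and 0.0567 with the suffix as a block). It was -0.61 between the replicate 1 arrays and -0.95 between the replicate 2 arrays.

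H2AC18 and H2AC19, measured together by 214290_s_at, had 1171 and 1968 with PRMT5 shRNA, against 1739 and 2988 with scramble. The 2 groups overlapped, but within each suffix the PRMT5 shRNA array was lower, by 0.57 at replicate 1 and by 0.60 at replicate 2. The difference of -0.58 had an adjusted p of 0.862 without the block and 0.0499 with the suffix of the shRNA arm as a block, when it was the 1 member that fell, against 0.638% of all probe sets. With a block in both arms it was 0.0655.

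H4C13 had low signals, 9.47 and 13.7 with PRMT5 shRNA, against 45.7 and 73.0 with scramble (log2 -1.66, adjusted p = 0.63). The 2-gene H2B probe set 215779_s_at (H2BC11 and H2BC8) had 87.1 and 119 with PRMT5 shRNA, against 184 and 199 with scramble (-0.85, adjusted p = 0.732). The 6-gene H2A probe set 207156_at was on the other side, at 381 and 401 with PRMT5 shRNA, against 243 and 267 with scramble (0.60, adjusted p = 0.732). None of these 3 overlapped between groups and none passed with the block, where their adjusted p lay between 0.265 and 0.296.

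None of the genes in the lists of histone mRNA factors, chaperones, variants and S phase genes passed with PRMT5 shRNA either. Their medians were 0.05, 0.04, 0.15 and 0.18, against 0.01 over all probe sets. Of the 36 S phase genes 31 lay above 0, against 51.8% of all probe sets. Of the marker lists, 0 HEL, lymphocyte, monocyte and granulocyte, or epithelial and fibroblast genes passed. Of 8 tested monocyte and granulocyte genes 7 lay below 0, against 51.8% of all probe sets above 0. With the shRNA-arm block ITGAM was lower (-1.15, adjusted p = 0.048).

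Within the shRNA arm the histone members differed between the 2 suffixes about as often as other probe sets. Both replicate 2 arrays lay above both replicate 1 arrays for 15 members and below for 13, against 23.8% and 24.4% of all probe sets. H2AC6 was 2.58 times as high at replicate 2 as at replicate 1 with PRMT5 shRNA and 4.01 times with scramble, and H2BC5 1.77 and 1.69 times. H2BC12 was 1.80 and 1.30 times as high, and the H4 probe set 205967_at stood at 0.716 and 0.69 of its replicate 1 signal. Deviations of same-suffix arrays from their group means correlated at 0.477 over the 53 members and 0.303 over all probe sets, which share these arrays. What the suffix stands for is not given in the labels.

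**Figure D3:**
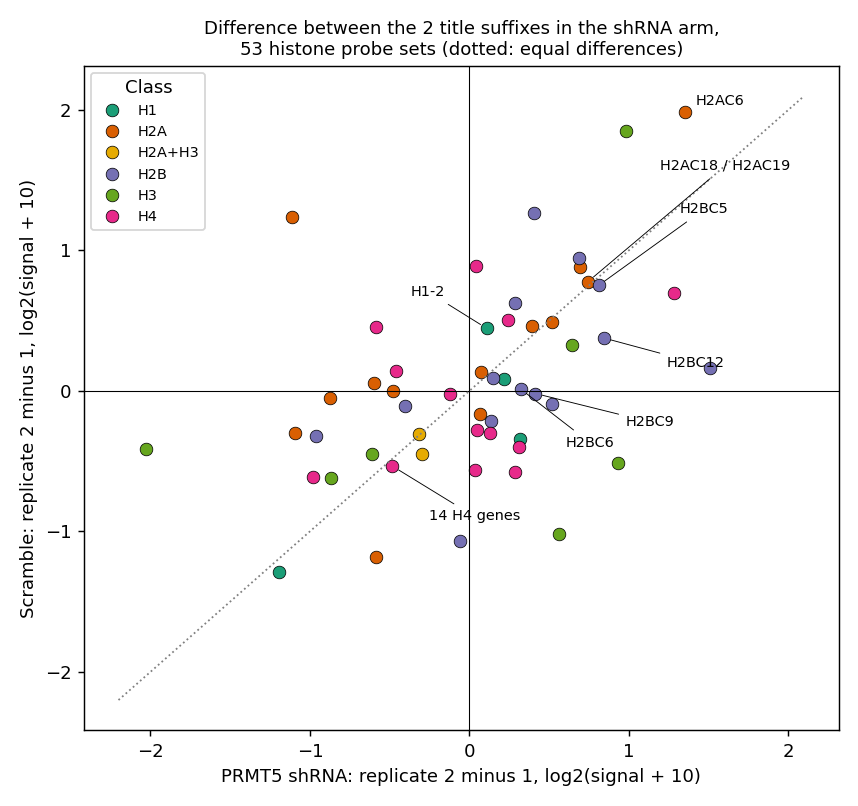
Difference between replicate 2 and replicate 1 in log2(signal + 10) with PRMT5 shRNA (horizontal) and with scramble (vertical) for the 53 tested histone probe sets, coloured by class. Points near the dotted line changed alike with the suffix in both groups: H2AC6 lies at 1.35 and 1.99, and the 14-gene H4 probe set at -0.48 and -0.54.

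The 2 effects were then compared directly, as the difference between CEP701 minus DMSO and PRMT5 shRNA minus scramble, which share no arrays. Each treatment was given in its own arm, so treatment and arm cannot be told apart in this difference. Of the members 1 passed, H2BC5 (209911_x_at), against 0.927% of all probe sets. Its effects were 1.72 with CEP701 and -0.52 with PRMT5 shRNA, and they differed by 2.24 (SE 0.421, adjusted p = 0.0435). The second H2BC5 probe set had effects of 1.19 and 0.33, and its difference of 0.87 did not pass (adjusted p = 0.427).

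H1-2 was next, with effects of 0.64 and -0.78 and a difference of 1.42 (SE 0.287, adjusted p = 0.0537). H2BC12 (1.28 and -0.17, adjusted p = 0.0836), H2BC9 (0.98 and -0.17, adjusted p = 0.0947) and H2AC18 with H2AC19 (0.78 and -0.58, adjusted p = 0.127) did not pass. With the shRNA-arm block 10 members were higher and 1 lower in this contrast, against 5.68% and 5.07% of all probe sets. They included H1-2 (adjusted p = 0.00363), H2BC12 (0.00105) and H2AC18 with H2AC19 (0.00102). The one that was lower was the H4 probe set 205967_at, with effects of -0.64 and 0.04 (adjusted p = 0.0289).

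Without the block the H2BC5 call was lost when any 1 of the CEP701 or DMSO arrays, scramble replicate 2 or PRMT5 shRNA replicate 1 was left out, when no member passed. With scramble replicate 1 left out 5 members passed, against 3.18% of all probe sets, and with PRMT5 shRNA replicate 2 left out 2 did, against 1.69%. Both arms had arrays that did not overlap, higher with CEP701 and lower with PRMT5 shRNA, in 4 members: H1-2, H1-3, H2AC25 by its second probe set and the H2BC11 and H2BC8 probe set 215779_s_at. That is 7.55% of the 53, against 5.95% of all probe sets. Across the 53 members the effects correlated at a Pearson r of 0.0753 and a Spearman rho of 0.0564. Members that share genes and probes are not independent points.

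**Figure D4:**
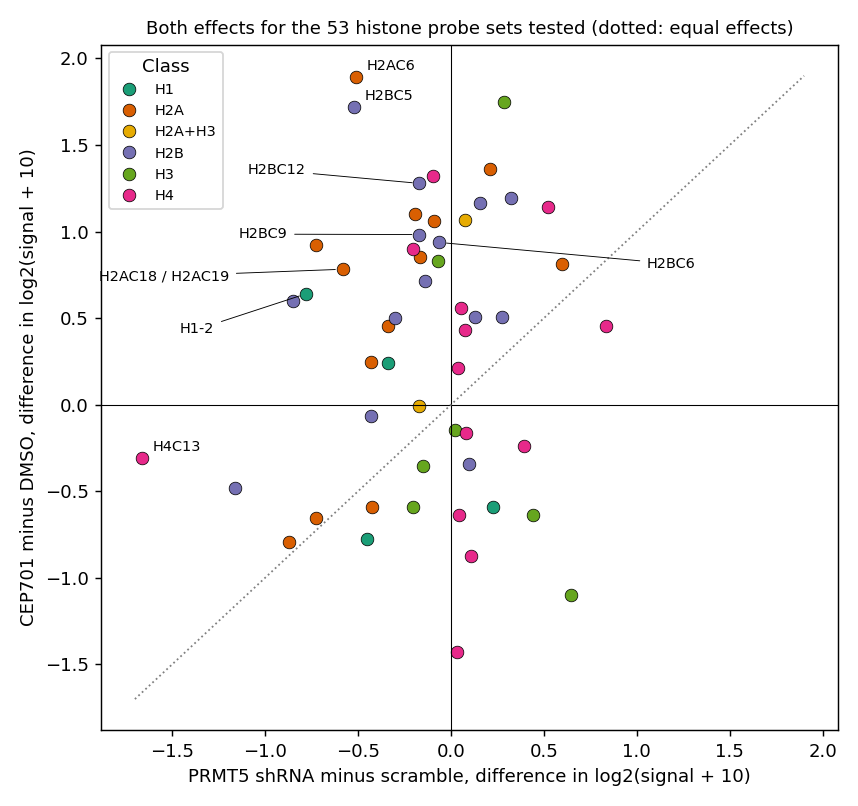
Effect of CEP701 (vertical, CEP701 minus DMSO) against that of PRMT5 shRNA (horizontal, PRMT5 shRNA minus scramble) for the 53 tested histone probe sets, both as differences in log2(signal + 10), coloured by class. H2AC6, H3C6 (236278_at) and H2BC5 (209911_x_at) lie highest, at 1.89, 1.75 and 1.72 on the vertical axis and -0.51, 0.28 and -0.52 on the horizontal, and over all 53 the Pearson r is 0.0753. The H3C6 probe set 236278_at passed the signal filter only through its CEP701 arrays.

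The control groups of the arms were compared last. Scramble stood above DMSO for 14 of the 53 members and below for 0, against 22.9% and 16.5% of all probe sets, with 17 higher and 1 lower at an unadjusted p under 0.05, against 28% and 19.9%. The shares of members called higher, 26.4% by adjusted p and 32.1% by unadjusted p, were near those of all probe sets. The arm, with its virus, handling and marker profile, and this contrast cannot be told apart. The largest difference was that of 210387_at (H2BC11 and H2BC8), with 455 and 570 with scramble, against 30.4 and 75.7 with DMSO (log2 3.14, adjusted p = 3.44e-04). The 2-gene H4 probe set 208026_at (H4C6 and H4C7) had 77.9 and 124 with scramble, against 3.99 and 18.2 with DMSO (2.45, adjusted p = 0.00838). This probe set passed the signal filter only through shRNA-arm arrays, and it was also low with CEP701, at 26.3 and 27.9. Without detection calls it cannot be said whether its DMSO signals lie above background, so the size of this difference is uncertain. H4C7 by a probe set of its own, 208551_at, had a difference of -0.59 that did not pass, so this gene has no single direction by its probe sets. H2BC21 had 171 and 339 with scramble, against 45.5 and 56.7 with DMSO (2.05, adjusted p = 0.00212). In these 3 largest rises the scramble arrays lay wholly above the DMSO arrays. Such a gap upward was seen in 49.1% of the 53 members and 41.2% of all probe sets.

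The level in each group differed by member. H2BC12 was highest with CEP701 and at most 4308 on the other arrays, and H2AC18 with H2AC19 had their highest signal, 2988, on a scramble array. Over the 53 members the median log2(signal + 10) per array was 6.81 and 6.61 with CEP701 and 6.46 and 6.43 with DMSO, and 7.05 and 6.76 with PRMT5 shRNA and 7.14 and 7.30 with scramble. By these medians the CEP701 arrays lay above the DMSO arrays and the PRMT5 shRNA arrays below the scramble arrays. The median signal of all probe sets on the array was also higher with CEP701, at 56.6 and 63.7, against 51.5 and 49.4 with DMSO. In the shRNA arm it was 62.7 and 69.3 with PRMT5 shRNA, against 65.5 and 64.3 with scramble, which overlapped.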

How the data were processed

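RNA of cells labelled HEL was measured on 8 arrays in 4 groups of 2. The authors deposited linear signal intensity per probe set from MAS5 (Affymetrix Expression Console), per the submitters' processing notes, which state no version. Each array's mean signal without the lowest and highest 2% was about 500.1, a scaling tested on the values.

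Probe sets were named from the platform annotation with symbols updated through Entrez identifiers, all of which matched for the 68 members. Members and gene lists were chosen with earlier results of these data known, and the lists were not tested as sets. Signals plus 10 were log2-transformed, 62 control probe sets were left out, and 32587 probe sets with signals above 59.98 on at least 2 arrays were fitted together in R 4.3.3, using lmFit and a trended eBayes of limma 3.58.1, with data.table version 1.17.8. The fit had 4 residual and 6.08 prior degrees of freedom. Adjusted p-values are Benjamini-Hochberg values over all tested probe sets within a contrast, with a threshold of 0.05. A fold change is on the log2(signal + 10) scale and understates changes of low signals. The fit was tested on simulated data.

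Members were named by rule: those passing in a contrast, with the lowest p up to 5 where fewer passed, the highest-signal member of each class, other probe sets of those genes, and the 3 largest in scramble minus DMSO; any other named member was chosen after its values were seen. The PRMT5 shRNA and scramble arrays are paired by the title suffix they share in the labels; same-suffix deviations correlated at 0.303. In the drug arm, the deviations of same-numbered arrays from their group means correlated at -0.00794, and these arrays share only a number. Alternatives covered the added constant, the filter, the scaling, the choice of probe sets, the variance trend, the arrays in the fit and the block. Motifs were searched as exact letters on both strands.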

Additional observations from a re-analysis of the deposited data

Results flagged for a closer look

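The effects of CEP701 and PRMT5 shRNA on H2BC5 (209911_x_at) differed by 2.24 log2 units by the test of the difference itself (limma, adjusted p = 0.0435). H2BC5 had 1452 and 1502 with CEP701 against 438 and 445 with DMSO, and 446 and 789 with PRMT5 shRNA against 658 and 1115 with scramble. Over the alternatives tried its adjusted p lay between 2.61e-04 and 0.208, and 12 of 18 left it over the threshold. The second H2BC5 probe set did not pass. Treatment and arm cannot be told apart in this difference.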

How the results depend on the processing

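The members that passed in a contrast, or were named for its lowest p or for the 3 largest differences in scramble minus DMSO, kept their direction there under each alternative. Of all 53 tested, 21 changed sign in CEP701 minus DMSO under at least 1 alternative, 33 in PRMT5 shRNA minus scramble, 24 in the difference of effects and 21 in scramble minus DMSO. In CEP701 minus DMSO these included H2BC4, at -0.026 with poly-A scaling, and, with 1 array left out at a time, 214522_x_at, which ranged between -0.46 and 0.45, the second H3C6 probe set 214616_at, between -0.82 and 0.12, and 214542_x_at, between -1.43 and 0.11. The first of these was above 0 without CEP701 replicate 2 (0.32) or DMSO replicate 2 (0.45), the second without CEP701 replicate 1 and the third without DMSO replicate 2. In PRMT5 shRNA minus scramble, H2BC12 and H2BC9 were both at 0.02 with poly-A scaling, and H2AC6 was at 0.16 without PRMT5 shRNA replicate 1 and 0.48 without scramble replicate 2. In CEP701 minus DMSO the 4 members that rose became 2 with median scaling, 2 with quantile normalization, 2 with scaling to the poly-A controls (1 of them among the 4), 1 without _x_at and _s_at probe sets (which leaves 1 of the 4 to test) and 0 without the variance trend, where 89 of all probe sets passed. They became 11 with only the arm's own arrays, 13 with a replicate block in both arms and 14 with the block in the shRNA arm alone, which was chosen after seeing the data. The 0 that fell became 2 with poly-A scaling and 1 with the arm's own arrays and with either block. In PRMT5 shRNA minus scramble the 0 that fell became 1 with the shRNA-arm block, and the block in both arms called 0.

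The 1 member with a difference of effects became 0 with 1 added in place of 10, no filter, median scaling, quantile normalization, no _x_at and _s_at probe sets or no variance trend, 2 with 50 added, a filter on all 8 arrays or poly-A scaling, and 11 with either replicate block. In scramble minus DMSO the 14 higher became 9 with the filter on all 8 arrays, 7 with median or poly-A scaling, 8 with quantile normalization, 6 with 1 probe set a gene and 5 without _x_at and _s_at probe sets. The 0 lower became 1 with 50 added, no filter or the filter on all 8 arrays, and 2 with median or poly-A scaling. The causes were not tested.

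Leaving out 1 array at a time gave 0 to 7 members higher and 0 lower with CEP701, 0 either way with PRMT5 shRNA, 0 to 5 with a difference of effects, and 7 to 14 higher and 0 to 1 lower in scramble minus DMSO. Where this leaves 1 array in a group, that array is assumed to vary like the other groups. Of all probe sets, 1245 passed in CEP701 minus DMSO, and 4953 with the block in both arms. In PRMT5 shRNA minus scramble 36 passed, 258 with that block and 0 without the trend. The 2 arrays a group, low signals without detection calls and probe sets shared between near-identical genes limit every value.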
